A study of Homo sapiens with 9 samples.

Results

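The transcripts of PDCD4, the eIF4A helicases and the regulators of cap-dependent translation around them were followed in LNCaP prostate cancer cells. The 10 genes were chosen by symbol, for their part in this pathway, with earlier results of these data known. They are *PDCD4*, *EIF4A1*, *EIF4A2*, *EIF4A3*, *EIF4E*, *EIF4EBP1*, *EIF4EBP2*, *RPS6KB1*, *RPS6KB2* and *BTRC*, among the 19984 protein-coding genes of the count table. All 10 had reads in every library and passed the filter on low values. RNA-seq was performed on 9 cultures, 3 for each of the deletion clones del-4 and del-56 and 3 for a WT clone. LNCaP is an established human prostate cancer line that expresses the androgen receptor. In del-4 and del-56, CRISPR-Cas9 had removed the promoter and the first exons of *EPCART*, an androgen-responsive long noncoding RNA, and the WT clone was the unedited reference. All 9 cultures were grown for 48 hours in RPMI 1640 medium with serum, and nothing else was added. Each genotype was represented by clones and not by a population of edited cells. Replicates are cultures of the same clone, and 1 WT clone served both comparisons, so the effect of the deletion and a difference between single clones cannot be told apart. *EPCART* is not protein-coding and was not analysed here.

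Cap-dependent translation starts when eIF4E binds the cap of an mRNA and joins the scaffold eIF4G and the helicase eIF4A in the eIF4F complex. eIF4A unwinds structure ahead of the ribosome. PDCD4 is a tumor suppressor that binds eIF4A and keeps it from RNA and from eIF4G, and the 4E-BP proteins occupy eIF4E in place of eIF4G. The kinase complex mTORC1 relieves both blocks. It phosphorylates the 4E-BPs, and it activates the S6 kinases, which phosphorylate PDCD4 and mark it for ubiquitination by the SCF ligase with the F-box protein β-TrCP. These steps act on proteins, and the values here are of mRNA.

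A short coding stretch of *PDCD4* holds the site of this control and is shown because S6 kinase and β-TrCP, the products of *RPS6KB1*, *RPS6KB2* and *BTRC*, act on the residues it encodes. It covers codons 61 to 80 of the transcript ENST00000280154.12 at chr10:110881370-110881429 (GRCh38, plus strand), within exon 3 of 12. Capitals mark the codon of serine 67, phosphorylated by S6 kinase, and codons 70 to 76, the β-TrCP recognition motif.
*PDCD4* stretch: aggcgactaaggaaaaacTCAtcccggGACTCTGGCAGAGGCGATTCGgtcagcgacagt

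The study's qRT-PCR primers for *PDCD4* are shown because they read a far smaller part of the transcript than the counts do. The forward primer lies at chr10:110896007-110896025 in exon 11, and the reverse primer spans the junction of exons 11 and 12. Their product is 98 bases of a transcript of 3481.
*PDCD4* forward primer: ctctgtgctggagcggttt
*PDCD4* reverse primer: caaaacgctttctgccccttg

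The eIF4A genes are near relatives, so it matters whether reads can tell them apart. Their DEAD-box stretches, which encode the helicase motif that gives the family its name, are shown as the kind of conserved sequence where confusion would be most likely. Capitals mark the codons of the motif. The *EIF4A1* stretch lies at chr17:7577061-7577120 (plus strand, exon 6 of 11) and the *EIF4A2* stretch at chr3:186786169-186786228 (plus strand, exon 6 of 11). The *EIF4A3* stretch spans the junction of exons 6 and 7 of 12, between positions 80139155 and 80139721 of chromosome 17 (minus strand).
*EIF4A1*: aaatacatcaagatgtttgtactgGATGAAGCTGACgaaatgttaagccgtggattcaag
*EIF4A2*: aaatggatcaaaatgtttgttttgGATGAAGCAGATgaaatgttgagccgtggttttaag
*EIF4A3*: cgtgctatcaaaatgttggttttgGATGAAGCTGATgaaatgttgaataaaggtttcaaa
Of these 60 bases, 10 differed between *EIF4A1* and *EIF4A2*, 15 between *EIF4A2* and *EIF4A3* and 19 between *EIF4A1* and *EIF4A3*. Over the coding sequences, *EIF4A1* and *EIF4A2* had 76.7% identical bases, and the longest identical run of their transcripts was 20 bases, against reads of 150 bases. No window of 150 bases of *EIF4A2* or *EIF4A3* occurred in a transcript of another gene. All windows of *EIF4A1* occurred in the overlapping readthrough gene *SENP3-EIF4A1* or in another transcript annotated at the same locus. In *EIF4E*, 14.2% of the windows also occurred in the processed copy *EIF4EP2*. The remaining 6 genes shared none.

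The libraries held between 91074556 and 118877134 reads on genes, and each of the 10 genes had from 1640 to 167364 reads per library, so counting error was smallest for *EIF4A1* and largest for *BTRC*. Values are normalized counts, meaning read counts divided by 1 size factor per library. All 7 luminal prostate markers were present, with a summed level of 2810 to 3020 CPM over the libraries. Of 8 markers of leukocytes, fibroblasts, endothelium, basal and neuroendocrine cells, the sum was 10.7 to 13.8 CPM in del-4, 12.1 to 13.5 in del-56 and 11.0 to 11.5 in WT, and *PTPRC* was at 0 in both deletion clones. Most of that sum was *COL1A1*, a fibroblast collagen gene, which was higher in del-4 and del-56 than in WT (log2 fold change 0.33 and 0.34, limma adjusted p = 0.0037 and 0.0018), with no overlap of libraries. *COL1A2*, which encodes its partner chain, was near the floor, with mean normalized counts of 1.29 in WT, 0.64 for del-4 and 0 for del-56. The neuroendocrine marker *SYP* was lower in del-4 (-0.60, adjusted p = 0.036), and the other markers of this kind were not called or were below the filter. Mitochondrially encoded genes took 1.35% to 1.51% of the reads in del-4, 1.22% to 1.41% in del-56 and 1.06% to 1.37% in WT, with replicate 1 the highest of each clone. Replicate 1 also differed most from the other cultures of its clone in del-56 and WT, where chi-square values per degree of freedom were 22.94 and 19.29 in del-56 and 19.34 and 19.59 in WT, against 6.14 and 6.7 between replicates 2 and 3. Leaving out WT replicate 1 changed the genes called among the 10 from 6 to 7 for del-4 and from 6 to 5 for del-56, and leaving out del-56 replicate 1 gave 7 for del-56. The part of the markers and of the mitochondrial share in the results was not tested.

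*PDCD4*, *EIF4A2*, *EIF4E* and *BTRC* rose in both deletion clones, by 11.0% to 35.2%, each measured against the same 3 WT libraries. The share of all genes that rose in both clones was not computed. *EIF4A1*, by far the most abundant of the 10 transcripts, did not pass the test in either clone. *EIF4EBP1* went in opposite directions in the deletion clones, and *RPS6KB1* and *EIF4EBP2* did not pass the test in either of them. Genes were tested with limma on log2 of the normalized count plus 1, and a gene was called at a Benjamini-Hochberg adjusted p under 0.05 over all genes with a mean of at least 1. Because the 10 genes were chosen with earlier results of these data known, their counts beside all genes are a description only. In del-4, 6 of the 10 genes were called, all higher than in WT. Among the 17401 genes tested there, 40.7% were called, 20.5% higher and 20.2% lower. The number for the 10 genes was 7 at an unadjusted p under 0.05, again all higher, and edgeR and DESeq2 each called 6 higher and 0 lower. In del-56, 5 were called higher and 1 lower, where 39.7% of 17481 genes were called, 19.2% higher and 20.5% lower. The background by direction rests on the scaling. After rescaling each library to the same total it was 13.6% higher and 28.4% lower in del-4. The calls among the 10 genes moved with the scaling as well. In del-4, the same rescaling left 4 called, all higher, and quantile normalization gave 5 higher and 1 lower, the latter *EIF4A1*. In del-56, these scalings gave 5 higher and 1 lower, and 6 higher and 2 lower. Counted by libraries, 7 of the 10 genes had all del-4 values above all WT values and none had them below, where 49.5% of genes were separated in this way, 24.8% higher and 24.8% lower. For del-56 the counts were 6 above and 1 below, against 48.7% of genes, 24.0% higher and 24.8% lower. The median log2 fold change of the 10 genes was 0.15 for del-4 and 0.13 for del-56, against -0.0028 and -0.0011 over all genes tested. By the thresholds of the study, an unadjusted p under 0.05 and a change beyond 1 on the log2 scale, 0 of the 10 genes passed in any of the comparisons, where 5.82% of genes passed in del-4, 5.94% in del-56 and 4.28% between the deletion clones. In bulk libraries, fewer cells that express a gene and less RNA of it per cell cannot be told apart.

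**Figure D1:**
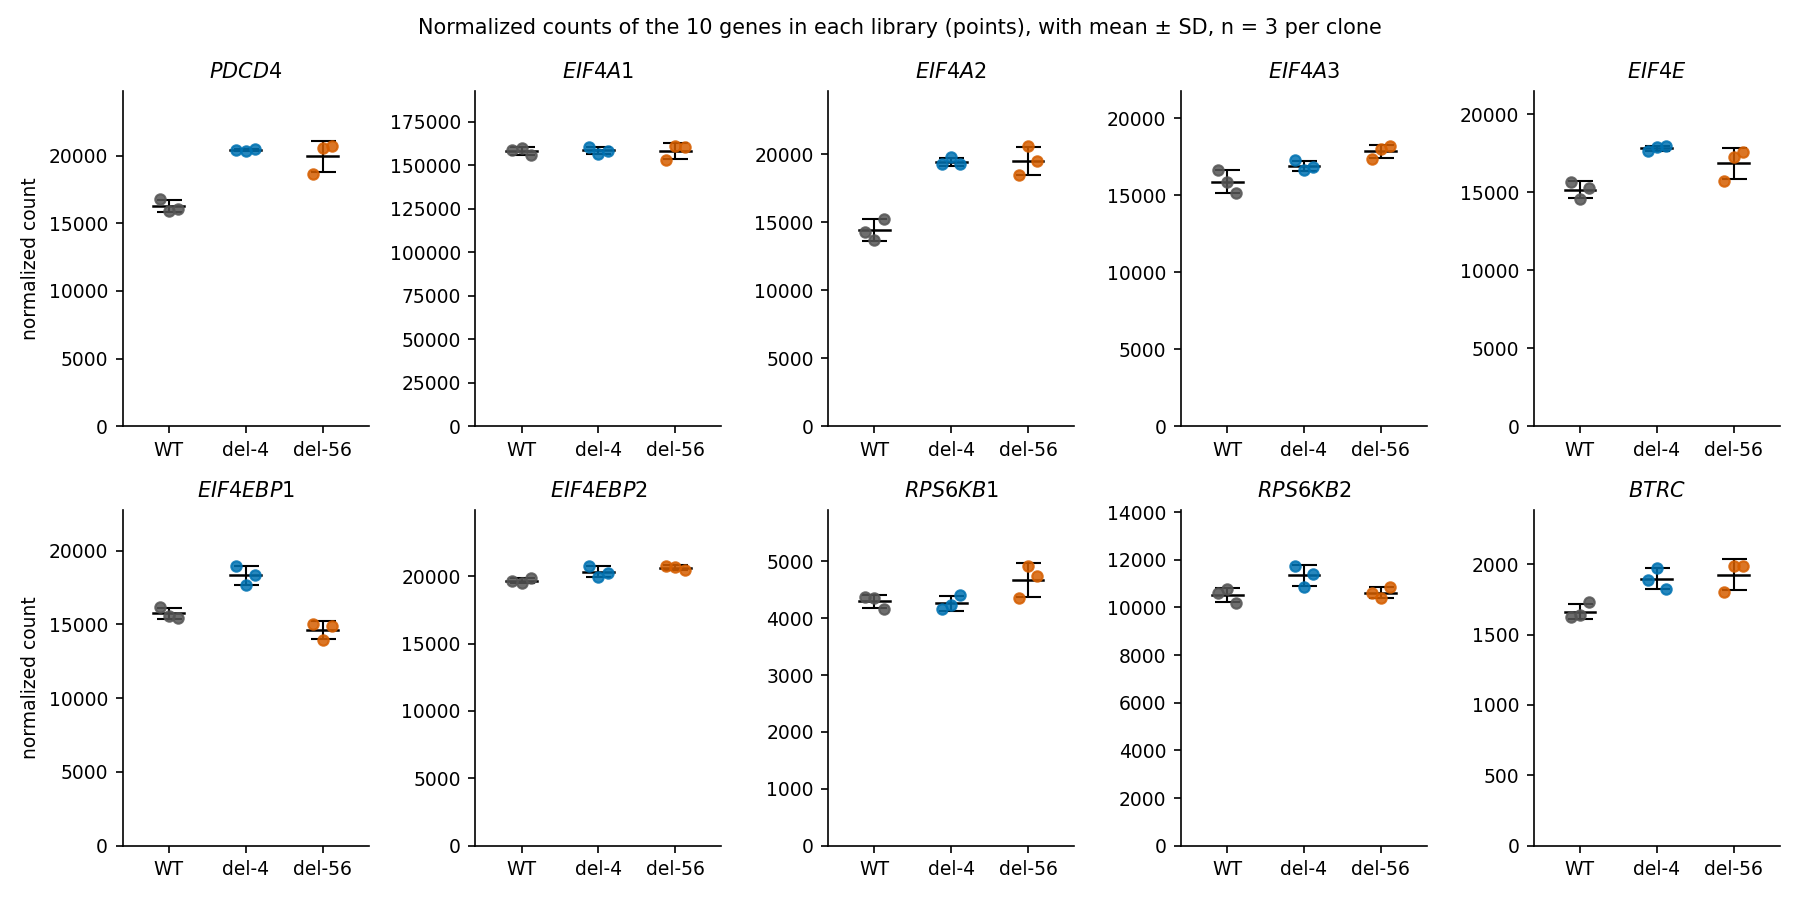
Normalized counts (y axis, from 0) of each of the 10 genes in the libraries of WT, del-4 and del-56 (points), with the mean and SD of 3 cultures. The 6 deletion libraries lie above all 3 WT libraries for *PDCD4*, *EIF4A2*, *EIF4E*, *EIF4EBP2* and *BTRC*, while the clones overlap for *EIF4A1*. The share of all genes separated in both clones at once was not computed.

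*PDCD4* (ENSG00000150593.18, chr10:110871795-110900006, plus strand) had normalized counts of 20439, 20322 and 20487 in del-4, 18612, 20531 and 20670 in del-56, and 16759, 15934 and 16078 in WT. Every deletion library was above every WT library, and the del-4 cultures were the most alike of the 3 clones. The mean was 25.6% higher than in WT in del-4, a log2 fold change of 0.33 (SE 0.034, 95% confidence interval 0.26 to 0.40, limma adjusted p = 4.4e-07). In del-56 it was 22.5% higher, a log2 fold change of 0.29 (SE 0.043, 95% confidence interval 0.20 to 0.39, limma adjusted p = 5.5e-05). Between the deletion clones the difference was 0.036 (95% confidence interval -0.051 to 0.12, limma adjusted p = 0.61). A smaller log2 fold change was found for 85.1% of the genes tested in del-4 and for 82.8% of those in del-56. With any 1 library left out, the del-4 value lay between 0.31 and 0.35 and remained called.

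*PDCD4* stayed higher in both deletion clones on each reference scale, but the size of the difference and the del-56 call depended on the reference. *TBP*, which encodes the TATA-box binding protein and served the study for scaling, had normalized counts of 1675, 1727 and 1577 in del-4, 2257, 1857 and 1998 in del-56, and 1966, 1901 and 1940 in WT. *TBP* was itself lower in del-4 than in WT (log2 fold change -0.22, limma adjusted p = 0.0052), and in del-56 its change was 0.069 (adjusted p = 0.46). Per *TBP* read, *PDCD4* reads numbered 12.2, 11.8 and 13.0 in del-4, 8.25, 11.1 and 10.3 in del-56, and 8.53, 8.38 and 8.29 in WT. The del-4 libraries stayed above WT on this scale, while del-56 replicate 1 fell below all 3 WT libraries. *TBP* brings its own spread into every gene on this scale. With all genes scaled to *TBP*, the log2 fold change of *PDCD4* became 0.55 in del-4 (limma adjusted p = 1.08e-16). In del-56 it was 0.22 and no longer called (limma adjusted p = 0.08), and del-4 exceeded del-56 by 0.33 (adjusted p = 0.00737). This scaling moved the median of all genes by 0.22 in del-4, by -0.069 in del-56 and by 0.29 between the deletion clones. Against the geometric mean of *TBP*, *ACTB*, *GAPDH* and *FBL*, the log2 fold change was 0.32 for del-4 and 0.23 for del-56. *GAPDH* exceeded its WT level in each deletion clone (log2 fold change 0.23 and 0.21, limma adjusted p = 0.0026 and 0.010), and *ACTB* and *FBL* were not called.

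At its end *PDCD4* shares 1277 bases with *BBIP1*, which is transcribed from the opposite strand. The libraries were strand-specific, but whether the authors' counting used strand is not given in the sources used here, and their tool counts a read for each gene it overlaps. *BBIP1* had a mean normalized count of 2593 in WT, below that of *PDCD4*, and its log2 fold changes were 0.15 in del-4 and 0.18 in del-56 (limma adjusted p = 0.025 and 0.018).

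Among the 13085 genes with a mean of at least 100, *SCP2* followed *PDCD4* most closely over the 9 libraries, with a Pearson r of log2 values of 0.995. *LSM12* (0.990), *STX8* (0.989), *GNL2* (0.989) and *GART* (0.988) came next. Their log2 fold changes ran from 0.24 to 0.32 in del-4 and from 0.24 to 0.31 in del-56. Of the other 9 genes followed here, *EIF4A2* (r 0.960, rank 136), *EIF4E* (0.951, rank 195) and *BTRC* (0.899, rank 797) came nearest, and *EIF4EBP1* (0.256) and *EIF4A1* (0.255) were farthest. The 9 points are 3 clones of 3 cultures, so these coefficients mostly rank how the clones were ordered.

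*EIF4A1* encodes the main helicase of eIF4F, which PDCD4 binds (ENSG00000161960.16, chr17:7572824-7579006, plus strand). Its normalized counts were 160732, 156683 and 158320 in del-4, 152967, 160786 and 160583 in del-56, and 158618, 160125 and 155757 in WT. The ranges of the 3 clones overlapped. Against WT, del-4 stood at a log2 fold change of 0.0038 (95% confidence interval -0.084 to 0.091, limma adjusted p = 0.96) and del-56 at -0.0008 (95% confidence interval -0.098 to 0.096, adjusted p = 0.99). Quantile normalization placed *EIF4A1* lower in both clones, with del-4 at -0.21 (limma adjusted p = 0.000209) and del-56 at -0.17 (0.00433). *SENP3-EIF4A1*, which runs over 5892 of the same bases, had a mean of 163669 in WT against 158167 for *EIF4A1*, and the reads of the pair cannot be told apart.

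*EIF4A2* encodes the second cytoplasmic eIF4A (ENSG00000156976.17, chr3:186783205-186789897, plus strand). The libraries held normalized counts of 19265, 19780 and 19272 in del-4, 18460, 20579 and 19494 in del-56, and 14303, 13708 and 15268 in WT. All 6 deletion libraries were above the WT libraries, and it had the largest rise among the 10 genes in both clones. It was 34.9% higher in del-4 (log2 fold change 0.43, SE 0.040, limma adjusted p = 9.5e-08) and 35.2% higher in del-56 (0.44, SE 0.047, adjusted p = 2.1e-06). Between the deletion clones the difference was -0.004 (95% confidence interval -0.089 to 0.081). The only protein-coding gene that overlaps it, *RFC4* on the other strand, shares 18 bases and had log2 fold changes of -0.072 in both clones (limma adjusted p = 0.22 and 0.26).

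*EIF4A3* encodes the nuclear relative that anchors the exon junction complex on spliced mRNA and is not part of eIF4F (ENSG00000141543.12, chr17:80134369-80147151, minus strand). Normalized counts of it were 17293, 16659 and 16834 in del-4, 17383, 18010 and 18178 in del-56, and 16672, 15883 and 15154 in WT. The del-56 libraries were above WT, while the lowest del-4 library was just below the highest WT library. It was called in del-56 (log2 fold change 0.17, SE 0.041, limma adjusted p = 0.0035) and not in del-4 (0.091, adjusted p = 0.068). The test between the deletion clones gave -0.077 (adjusted p = 0.15). Without WT replicate 1 the del-4 value was 0.13 and called (adjusted p = 0.0126).

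**Figure D2:**
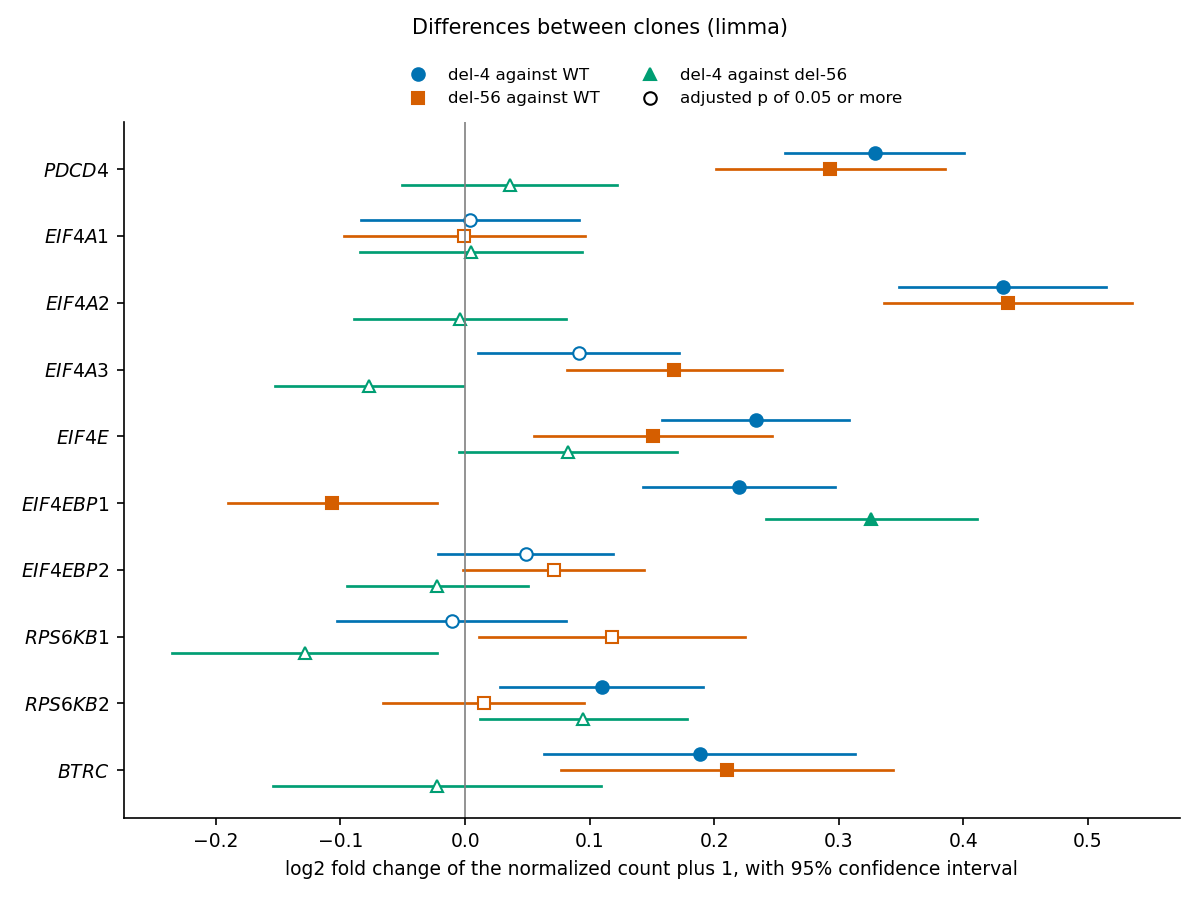
Log2 fold change of the normalized count plus 1 (x axis) with its 95% confidence interval for each of the 10 genes in del-4 against WT, del-56 against WT and del-4 against del-56, with open symbols at an adjusted p of 0.05 or more. *PDCD4* and *EIF4A2* lie furthest to the right in both comparisons with WT, and *EIF4EBP1* is the only gene called between the deletion clones.

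*EIF4E* encodes the cap-binding protein (ENSG00000151247.13, chr4:98879276-98929133, minus strand). Its normalized counts were 17629, 17891 and 17928 in del-4, 15713, 17270 and 17550 in del-56, and 15670, 14579 and 15245 in WT. All 6 deletion libraries were above WT, but del-56 replicate 1 was close to the highest WT library. It was 17.5% higher in del-4 (log2 fold change 0.23, SE 0.036, limma adjusted p = 4.1e-05) and 11.0% higher in del-56 (0.15, SE 0.045, adjusted p = 0.014). The del-56 call was lost without del-56 replicate 2, del-56 replicate 3 or WT replicate 2 (log2 fold change 0.12 to 0.13, adjusted p 0.0639 to 0.0916).

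*EIF4EBP1* encodes 4E-BP1, the repressor of eIF4E that mTORC1 inactivates (ENSG00000187840.5, chr8:38030534-38060365, plus strand). Its normalized counts were 18981, 17679 and 18351 in del-4, 15045, 13950 and 14891 in del-56, and 16181, 15597 and 15452 in WT. The 3 clones did not overlap, with del-4 above WT and del-56 below it. In del-4 it was 16.5% higher (log2 fold change 0.22, SE 0.037, limma adjusted p = 9.9e-05). In del-56 it was lower by a log2 fold change of -0.11 (SE 0.039, limma adjusted p = 0.042). That call was lost without del-56 replicate 2, del-56 replicate 3 or any of the 3 WT replicates (adjusted p 0.065 to 0.21) and in edgeR (adjusted p = 0.0518). Tested directly, del-4 exceeded del-56 by 0.33 (SE 0.040, 95% confidence interval 0.24 to 0.41, limma adjusted p = 1.1e-05).

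*EIF4EBP2* encodes the related repressor 4E-BP2 (ENSG00000148730.7, chr10:70404145-70428618, plus strand). The normalized counts were 20764, 19971 and 20254 in del-4, 20778, 20682 and 20476 in del-56, and 19650, 19466 and 19847 in WT. The deletion libraries were all above WT, but the step was small. The log2 fold change was 0.049 in del-4 (95% confidence interval -0.022 to 0.12, limma adjusted p = 0.27) and 0.071 in del-56 (95% confidence interval -0.0014 to 0.14, adjusted p = 0.11).

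*RPS6KB1* encodes the S6 kinase that phosphorylates PDCD4 in the pathway above (ENSG00000108443.14, chr17:59893046-59950574, plus strand). Its normalized counts were 4152, 4231 and 4409 in del-4, 4345, 4921 and 4734 in del-56, and 4366, 4360 and 4162 in WT. Del-4 and WT overlapped throughout, and 2 of the 3 del-56 libraries were above WT. The log2 fold change was -0.011 in del-4 (95% confidence interval -0.10 to 0.081, limma adjusted p = 0.87) and 0.12 in del-56 (95% confidence interval 0.011 to 0.22, adjusted p = 0.075). Without del-56 replicate 1 the latter became 0.17 and was called (adjusted p = 0.00773). A readthrough gene of the same strand, ENSG00000267318, runs over 9667 bases of the locus and had log2 fold changes of -0.031 and 0.080 (adjusted p = 0.62 and 0.24).

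*RPS6KB2* encodes the second S6 kinase (ENSG00000175634.15, chr11:67428460-67435401, plus strand). Its libraries held normalized counts of 11752, 10866 and 11412 in del-4, 10628, 10380 and 10849 in del-56, and 10591, 10756 and 10188 in WT. All del-4 libraries were above WT, and del-56 and WT overlapped. The log2 fold change was 0.11 in del-4 (SE 0.039, limma adjusted p = 0.031) and 0.015 in del-56 (95% confidence interval -0.066 to 0.095, adjusted p = 0.80). The test between the deletion clones gave 0.095 (adjusted p = 0.10). The del-4 call was lost after rescaling to the same total (0.040, adjusted p = 0.414), after quantile normalization (0.078, adjusted p = 0.103), and without del-4 replicate 1, del-4 replicate 3 or WT replicate 3 (adjusted p 0.103 to 0.149).

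*BTRC* encodes the F-box protein β-TrCP1, the subunit of the SCF ligase that recognizes phosphorylated PDCD4 (ENSG00000166167.18, chr10:101354033-101557321, plus strand). It had the lowest counts of the 10 genes, at 1890, 1974 and 1826 in del-4, 1803, 1990 and 1989 in del-56, and 1624, 1641 and 1729 in WT. All deletion libraries were above WT. It was 13.9% higher in del-4 (log2 fold change 0.19, SE 0.059, limma adjusted p = 0.016) and 15.7% higher in del-56 (0.21, SE 0.063, adjusted p = 0.014). The del-4 call was lost after rescaling to the same total (adjusted p = 0.148) and without del-4 replicate 2 or WT replicate 2 (0.0663 and 0.054), and the del-56 call was lost without del-56 replicate 2, del-56 replicate 3 or WT replicate 2 (adjusted p 0.0501 to 0.0624).

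The deletion clones were also compared with each other. Only *EIF4EBP1* of the 10 genes was called, higher in del-4, where 19.9% of 17447 genes were called, 10.9% as higher in del-4, so that 54.7% of the calls were in that direction. Of the 10 genes, 4 had an unadjusted p under 0.05, where 5530 of the 17447 genes passed, and edgeR and DESeq2 each called 1. After rescaling to the same total, *EIF4A3* (-0.12, limma adjusted p = 0.0226) and *RPS6KB1* (-0.17, adjusted p = 0.0261) were called lower in del-4 as well, and 36.7% of the genes called were higher in del-4.

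Per kilobase of the MANE Select transcript, levels in WT covered a wide range. *EIF4A1* led with a normalized count per kilobase of 89970 ± 1262 (SD, n = 3), followed by *EIF4EBP1* at 19037 ± 467, *EIF4A2* at 7649 ± 417, *EIF4A3* at 6301 ± 301, *EIF4E* at 6248 ± 227 and *RPS6KB2* at 6066 ± 169. Below them came *PDCD4* at 4670 ± 127, *EIF4EBP2* at 2624 ± 25.4, *RPS6KB1* at 791 ± 21.4 and *BTRC* at 276 ± 9.38. The libraries of *EIF4A3* and *EIF4E* overlapped, as did those of *EIF4E* and *RPS6KB2*, and the other neighbours in this order did not. In del-4 *EIF4E* stood above *EIF4A3* without overlap, and elsewhere the order of the 10 genes was that of WT in both deletion clones. The order depended on the length used. Per kilobase of all annotated exons, *PDCD4* ranked 3 at 3575 ± 96.9 and *EIF4A2* ranked 7 at 2353 ± 128 in WT.

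Ratios within a library do not depend on the size factor. *EIF4A2* made up 10.05%, 10.53% and 10.19% of the summed *EIF4A1* and *EIF4A2* levels per kilobase in del-4, 10.11%, 10.66% and 10.17% in del-56, and 7.75%, 7.39% and 8.37% in WT. The share was above WT in all 6 deletion libraries, and the deletion clones overlapped. Per 100 of the same sum, *PDCD4* stood at 5.78, 5.86 and 5.87 in del-4, 5.52, 5.76 and 5.84 in del-56, and 4.92, 4.65 and 4.78 in WT. Again no deletion library overlapped WT. These ratios count *SENP3-EIF4A1* reads in *EIF4A1*, are set by the length used, and are described without a test.

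The balance of repressor and cap-binding transcripts differed less. The summed *EIF4EBP1* and *EIF4EBP2* levels per kilobase were 3.54, 3.26 and 3.37 times that of *EIF4E* in del-4, 3.24, 2.76 and 2.87 times in del-56, and 3.44, 3.57 and 3.40 times in WT. Del-4 overlapped WT, and del-56 lay below both the WT range and the del-4 range. *EIF4EBP1* exceeded *EIF4EBP2* by 8.28, 8.02 and 8.21 times in del-4, 6.56, 6.11 and 6.59 times in del-56, and 7.46, 7.26 and 7.05 times in WT, with no overlap between clones. *RPS6KB2* exceeded *RPS6KB1* by 8.87, 8.04 and 8.11 times in del-4, 7.66, 6.61 and 7.18 times in del-56, and 7.60, 7.73 and 7.67 times in WT, so that the del-4 libraries were the highest. The size of each of these ratios is set by the MANE Select lengths. Before division by length, the WT mean of *EIF4EBP1* was below that of *EIF4EBP2* (15743 against 19654).

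**Figure D3:**
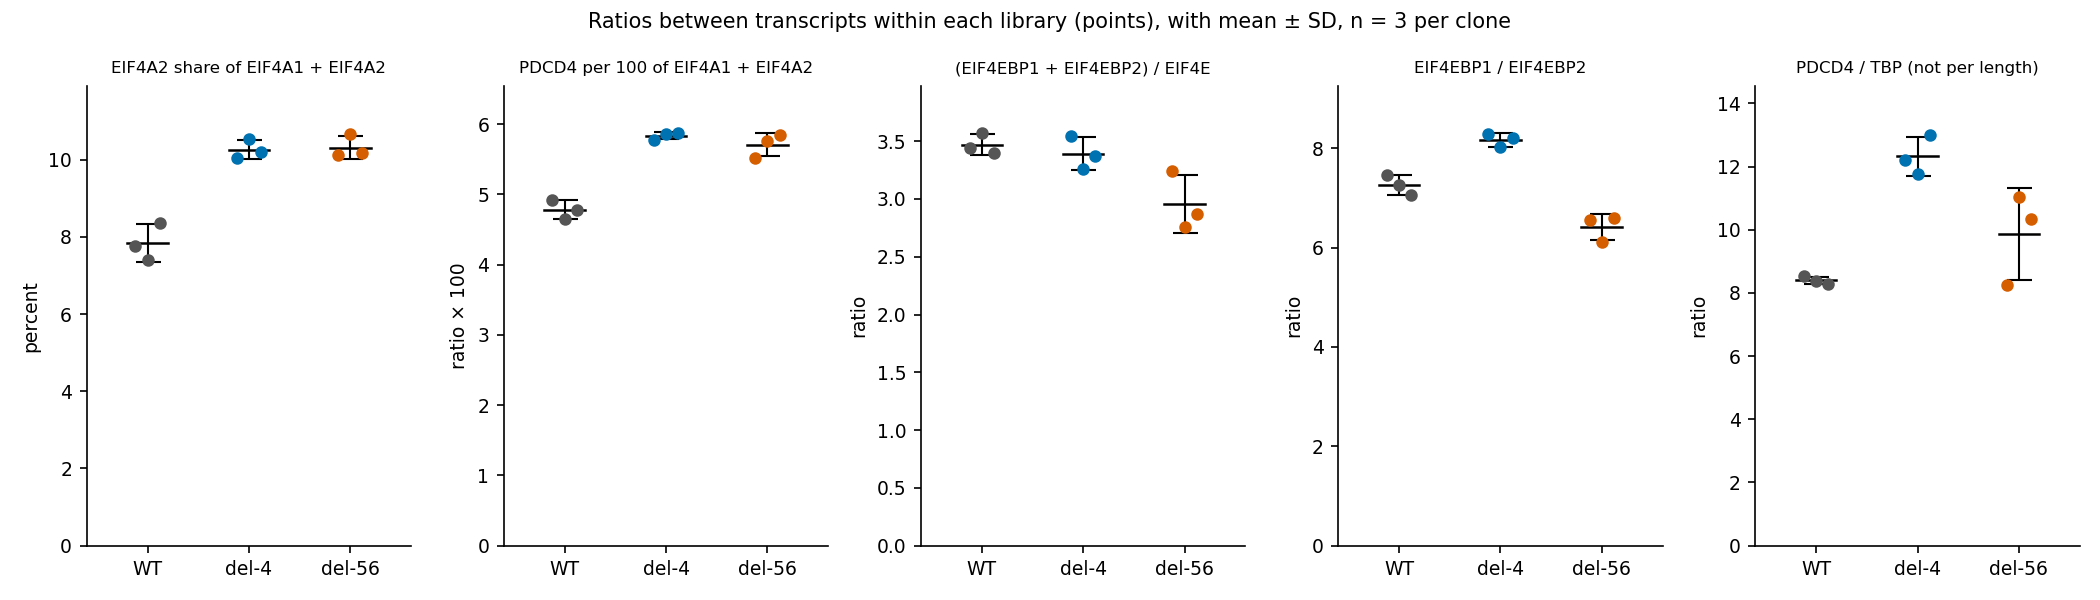
Ratios between transcripts in each library (points, y axes from 0) for WT, del-4 and del-56, with the mean and SD of 3 cultures, per kilobase of the MANE Select transcript except for *PDCD4* per *TBP* read. The *EIF4A2* share and the *PDCD4* ratio to *EIF4A1* plus *EIF4A2* separate WT from both deletion clones, whereas del-56 replicate 1 lies at the WT level for *PDCD4* per *TBP*, at 8.25.

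The other genes of the pathway were taken from 5 lists with 34 genes in all, grouped by textbook role, and all 34 were tested. These lists, too, were chosen with earlier results of these data known. In del-4, 16 of the 34 genes were called higher and 5 lower, beside 20.5% and 20.2% of all genes. In del-56, 15 were called higher and 6 lower, beside 19.2% and 20.5% of all genes. In either direction, 40.7% and 39.7% of all genes were called in these comparisons. The same WT libraries served both comparisons. Their median log2 fold change was 0.080 for del-4 and 0.097 for del-56. Rescaling to the same total changed the del-4 counts to 14 higher and 8 lower, and quantile normalization to 12 and 8.

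Of 6 genes that set the availability of eIF4E, 3 rose in del-4 and 2 in del-56, beside 20.5% and 19.2% of all genes. *EIF4E3*, an eIF4E relative with weak cap binding, changed most of all 34 genes. Its normalized counts were 2030, 1964 and 2027 in del-4, 1486, 1308 and 1365 in del-56, and 899, 923 and 885 in WT. The 3 clones were fully separated, with del-4 highest and WT lowest. It was 2.22-fold higher in del-4 (log2 fold change 1.15, SE 0.064, limma adjusted p = 1.2e-10) and 1.53-fold higher in del-56 (0.62, SE 0.075, adjusted p = 7.3e-06). In *EIF4E3*, 2.36% of the windows of 150 bases also occurred in ENSG00000285708, an overlapping protein-coding gene of the same strand. *MKNK1*, a kinase that phosphorylates eIF4E, rose by 0.25 in del-4 and 0.29 in del-56 on the log2 scale (limma adjusted p = 0.00051 and 0.00021). Outside the rule for naming genes, and picked after their values were seen, *MKNK2* rose in del-4 (0.24) and *EIF4EBP3* fell in del-56 (-0.21, adjusted p = 0.015). *EIF4EBP3* lies within the readthrough gene *ANKHD1-EIF4EBP3*, so its reads are uncertain.

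Of 12 genes for the eIF4F scaffold, the helpers of eIF4A and poly(A) binding, 5 rose in del-4 and 7 in del-56. Over all genes, 20.5% and 19.2% were called higher, and 40.7% and 39.7% in either direction. Among the poly(A)-binding proteins, *PABPC1* was up by 0.39 in del-4 and by 0.42 in del-56 on the log2 scale (limma adjusted p = 1.3e-06 and 5e-06), which became 0.17 and 0.24 after quantile normalization. *PABPC4* was up by 0.42 and 0.38 (adjusted p = 2.4e-08 and 1.5e-06). *EIF4G3*, a scaffold that binds eIF4A and eIF4E, rose by 0.32 and 0.38 (adjusted p = 7.1e-07 and 1.4e-06). *EIF4B*, which stimulates the helicase, rose by 0.17 and 0.22 (adjusted p = 0.0023 and 0.00075), but quantile normalization gave -0.020 and 0.11, and rescaling to the same total gave 0.099 in del-4. *EIF4G2* was also called higher in each clone. The main scaffold gene *EIF4G1* was not called, at -0.086 in del-4 and -0.015 in del-56 (adjusted p = 0.11 and 0.83), and neither was *EIF4H*. *PAIP1* and *PAIP2*, named after their values were seen, were called higher in del-56 (0.16 and 0.17).

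Of the 4 other genes of the SCF ligase of β-TrCP, the adaptor *SKP1* rose in both clones (log2 fold change 0.16 and 0.20, limma adjusted p = 0.0018 and 0.001), with del-4 at 0.089 after rescaling to the same total and 0.096 after quantile normalization, and the RING subunit *RBX1* fell (-0.24 and -0.37, adjusted p = 8.2e-05 and 2.1e-06). The scaffold *CUL1* was at -0.010 and 0.0080 and not called. *FBXW11*, which encodes the second β-TrCP and was named after its values were seen, was called in del-56 alone (0.19, adjusted p = 0.00084, with 0.068 in del-4), and del-4 was below del-56 in the direct test (-0.12, adjusted p = 0.035). In *SKP1*, 10.7% of the windows of 150 bases also occurred in other genes.

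Of 8 genes that activate S6 kinase or are its substrates and relatives, 5 rose and 2 fell in del-4, and 3 rose and 3 fell in del-56. Beside these counts, 20.5% of all genes were called higher and 20.2% lower when del-4 was tested. With del-56 tested, these shares were 19.2% and 20.5%. The ribosomal protein gene *RPS6*, whose product gives S6 kinase its name, rose by 0.36 and 0.26 on the log2 scale (limma adjusted p = 3.2e-05 and 0.0012), or by 0.19 and 0.15 after quantile normalization. *RPS6KA3* (0.37 and 0.28) and *RPS6KA1* (0.29 and 0.32), which encode RSK kinases that can also phosphorylate ribosomal protein S6, rose in both clones. *PDPK1*, which encodes the kinase PDK1 that phosphorylates the activation loop of S6 kinase, fell by 0.32 in del-4 and by 0.30 in del-56 (adjusted p = 1.6e-05 and 3.7e-05), and 11.4% of its windows also occurred in copies of it. *EEF2K* was also called lower in each clone. Named after its values were seen, *IRS1*, an adaptor of insulin signaling, had normalized counts of 1930, 1718 and 1828 in del-4, 1069, 789 and 871 in del-56, and 1164, 1266 and 1061 in WT. It rose by 0.65 in del-4 (adjusted p = 1.3e-06) and fell by 0.36 in del-56 (adjusted p = 0.011), although del-56 replicate 1 was within the WT range.

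The partners of *EIF4A3* in the exon junction complex did not move together. *MAGOH* rose (log2 fold change 0.52 in del-4 and 0.41 in del-56, limma adjusted p = 4e-08 and 2e-06), and its near copy *MAGOHB* fell (-0.20 and -0.23, adjusted p = 0.0036 and 0.0023). No window of 150 bases was shared between their transcripts and those of any other gene. In del-4, *RBM8A* was also called lower (-0.12) and *CASC3* higher (0.11), both named after their values were seen.

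**Figure D4:**
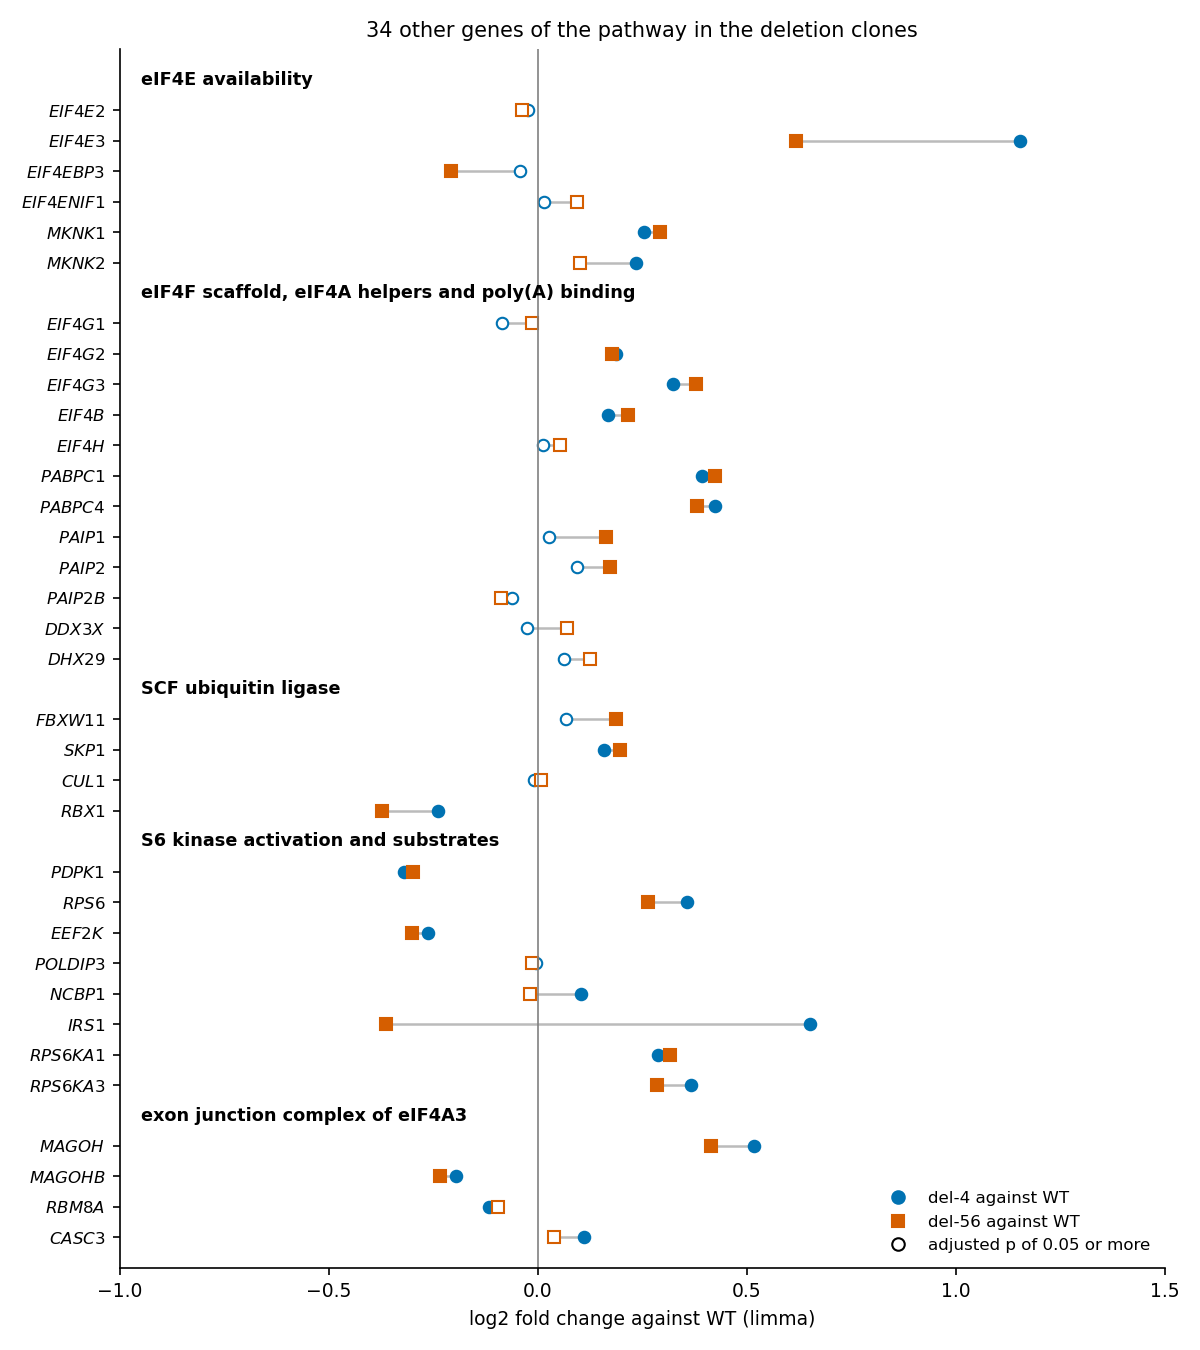
Log2 fold change against WT (x axis) of the 34 other pathway genes in del-4 (circles) and del-56 (squares), grouped by list, with open symbols at an adjusted p of 0.05 or more and a line joining the clones. *EIF4E3* lies furthest from 0, at 1.15 and 0.62, and *IRS1* has the clones on opposite sides of 0.

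The chromosomal surroundings of each gene were examined as well. For the 50 tested genes nearest to *PDCD4* on chromosome 10, the median log2 fold change was -0.013 for del-4 and 0.0083 for del-56, and 7 and 10 of these genes were above *PDCD4*. Around *EIF4A2* the medians were -0.058 and -0.0036, with 6 and 5 neighbours above it. Around *EIF4E* they were 0.030 and -0.036, around *BTRC* -0.0039 and 0.088, and around *EIF4EBP1* -0.035 and 0.022. *EIF4EBP1* in del-4 and *EIF4A2* in del-56 lay above the 90th percentile of their neighbours. Over the 10 genes, no median of the neighbours differed from 0 by more than 0.088. The neighbours of the other pathway genes were not examined. Of those called higher in both clones, *EIF4G3*, *RPS6KA1*, *PABPC4*, *MKNK1* and *MAGOH* lie on chromosome 1. *PDPK1* and *EEF2K*, called lower in both, lie on chromosome 16. The rest of the genes called the same way in both clones lie on other chromosomes. *RBM8A*, also on chromosome 1, was called lower in del-4. The part of chromosomal position in these results was not tested. Copy number was not analysed here.

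**Figure D5:**
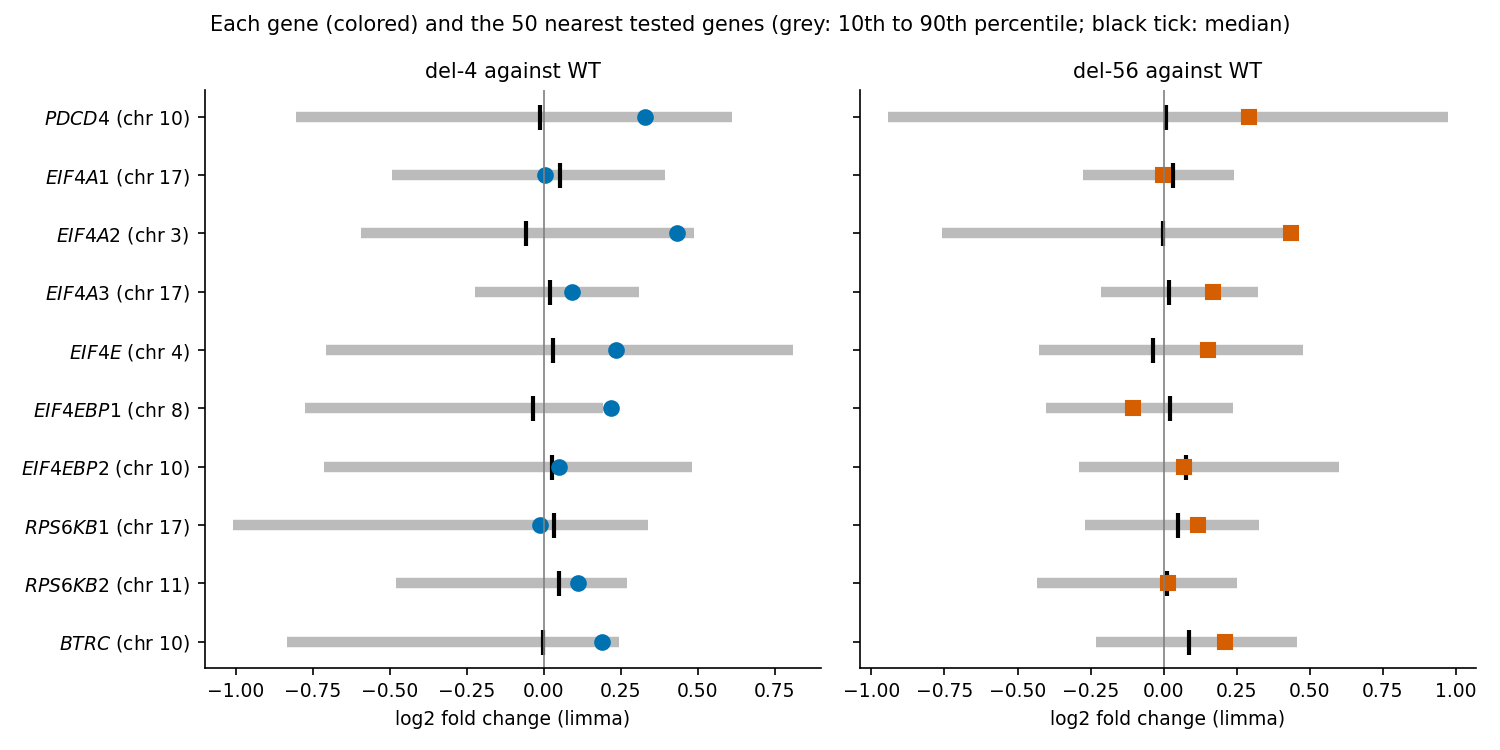
Log2 fold change against WT (x axis) of each of the 10 genes (circles in del-4, squares in del-56) beside its 50 nearest tested genes, shown as a grey bar from the 10th to the 90th percentile with a black tick at the median. The medians lie close to 0 in both clones, from -0.058 to 0.088, while *PDCD4* and *EIF4A2* lie to the right of theirs.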

How the data were processed

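PolyA RNA of 9 LNCaP cultures, 3 per clone, had been sequenced. The submitters' processing notes name FastQC 0.11.8, Trim Galore 0.6.5, STAR 2.71a, SAMtools 1.8 and bedtools 2.27.1. The authors aligned paired-end reads to GRCh38 and counted them on GENCODE version 38 protein-coding genes with multicov. The deposited signal values are counts divided by a DESeq2 size factor per library, and multiplying by that factor gave whole reads for 100.0% of values in each of the 9 libraries, within 1e-06. The factor was recovered from the values, and in del-4 replicates 2 and 3 and del-56 replicate 2 it was close to 1 (0.996 to 1.004). Of the 19984 identifiers, 19923 were matched to symbols of GENCODE version 44. No library repeated another of its own clone, since chi-square values per degree of freedom within clones were 6.14 to 22.94.

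Values were tested with limma 3.58.1 in R 4.3.3 (lmFit, eBayes with trend) on log2(normalized count + 1), after a filter at a mean of 1 in each comparison of 6 libraries, with Benjamini-Hochberg adjustment. Alternatives were pseudocounts of 0.5 and 5, no filter or a mean of 10, same total, quantile normalization, all 9 libraries in 1 model, the replicate number as block, edgeR 4.0.16 and DESeq2 1.42.0 on the recovered reads, the study's thresholds, leaving out each library and, for *PDCD4*, scaling to reference genes. On recovered reads, edgeR called 3529 genes higher and 3520 lower in del-4, and 3418 against 3525 for del-56. The code was tested on simulated data. Sequences came from GENCODE version 44 and the study's primer list. Named genes were the 10 genes, at most 4 genes per list called the same way in both clones by mean absolute log2 fold change, the reference genes, and the 5 genes most correlated with *PDCD4*. The members and lists were chosen with earlier results of these data known. The limma p-values, SEs and intervals rest on the spread between cultures of a clone, with each gene's variance moderated towards a trend over all genes.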

Additional observations from a re-analysis of the deposited data

Results flagged for a closer look

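Among the genes named by rule, 4 differed between the deletion clones in the direct limma test with all genes. *EIF4EBP1* was higher in del-4 than in del-56 by 0.3262 on the log2 scale (adjusted p = 1.1e-05), and its values lay on opposite sides of WT. *EIF4E3* was higher by 0.5353 (adjusted p = 9.9e-06), with both clones above WT. *RBX1* was higher in del-4 by 0.1328 (adjusted p = 0.039), with both clones below WT. For the reference gene *TBP* the difference was -0.2921, with del-4 the lower clone (adjusted p = 0.0074), with no overlap of libraries.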

How the results depend on the processing

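By the study's thresholds, 0 of the 10 genes were called in any comparison, and of the 34 other pathway genes 1 was called in del-4, 0 in del-56 and 1 between the deletion clones. For the 10 genes, leaving out a library gave 5 to 7 calls in del-4, 3 to 7 in del-56 and 1 or 2 between the deletion clones, with 2 when del-4 replicate 2 or del-56 replicate 1 was left out. There rescaling to the same total gave 3 and quantile normalization 2. The 3 in del-56 came without del-56 replicate 2, del-56 replicate 3 or WT replicate 2. For the 34 genes the ranges were 19 to 21 in del-4 and 19 to 22 in del-56. Between the deletion clones, 8 of the 34 were called with all libraries, where 19.9% of all genes were called, 10.9% as higher in del-4. Leaving out a library gave 2 to 7 in this comparison. There the split of 6 higher and 2 lower became 2 and 4 after rescaling to the same total and 2 and 7 after quantile normalization, and the count was 2 if del-4 replicate 1 was left out, 5 for del-4 replicate 2 and 3 for each of del-4 replicate 3, del-56 replicate 2 and del-56 replicate 3. The cause was not tested.

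Sign changes concerned *EIF4B* and values that were not called with the standard settings, and after the change of sign the adjusted p was under the threshold for *EIF4A1* in del-4 after quantile normalization alone. Rescaling to the same total gave -0.0655 for *EIF4A1* and -0.0207 for *EIF4EBP2* in del-4, -0.0143 for *RPS6KB2* in del-56, and -0.0045 for *PDCD4* and -0.0357 for *EIF4A1* between the deletion clones. Quantile normalization gave -0.2061 for *EIF4A1* and -0.0199 for *EIF4B* in del-4, and -0.0048 for *PDCD4* and -0.0426 for *EIF4A1* between the deletion clones. For *EIF4A1* in del-56, edgeR gave 0.0024 and DESeq2 0.0012. With 1 library left out, *EIF4A1* ranged from -0.0073 to 0.0127 in del-4 and from -0.0131 to 0.0229 in del-56, *RPS6KB1* from -0.0352 to 0.008 in del-4, and *RPS6KB2* from -0.0076 to 0.0315 in del-56. Between the deletion clones the ranges were -0.013 to 0.0626 for *PDCD4*, -0.0191 to 0.0168 for *EIF4A1*, -0.0432 to 0.0352 for *EIF4A2* and -0.0695 to 0.0047 for *BTRC*.

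The groups share replicate numbers, and the labels do not say whether a number is a shared batch. Same-numbered libraries of different clones had correlations of their deviations between -0.053 and 0.063, and differently numbered ones between -0.054 and 0.044. With del-4, same-numbered pairs ran from 0.023 to 0.063 and the others from -0.054 to 0.005. Between del-56 and WT, same-numbered pairs ran from -0.053 to 0. Whether the numbers pair the libraries is therefore not settled. With the replicate block, 6 of the 10 genes were called in del-4, 5 in del-56 and 1 between the deletion clones, and *EIF4EBP1* in del-56 had an adjusted p of 0.0802 in limma. Of the single-gene values under all alternatives, 873 kept their direction and their side of the threshold, 22 lost the call, 10 gained it and 29 changed sign. Each of the 10 genes had at least 1640 reads per library. The intervals rest on the spread of 3 cultures per clone, moderated towards a trend over all genes.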
